A study of Mus musculus with 13 samples.

Results

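The genes described here are the transcriptional coactivators YAP1 and TAZ, the TEAD DNA-binding factors through which they act, and the vestigial-like cofactors that bind the same factors. They were chosen by name, as the mouse symbols Yap1, Wwtr1 (which encodes TAZ), Tead1, Tead2, Tead3, Tead4, Vgll2, Vgll3 and Vgll4, and all 9 were found among the 48795 genes counted. They fall into 2 coactivators, 4 TEAD factors and 3 vestigial-like cofactors. Vgll1, the remaining vestigial-like gene, is given for reference.

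YAP1 and TAZ have no DNA-binding domain of their own and reach their target genes by binding TEAD factors. The Hippo kinases LATS1 and LATS2 phosphorylate them, which holds them in the cytoplasm or leads to their degradation. Vestigial-like proteins dock on the same face of the TEAD factors through a short TDU motif, and VGLL4 is known as a competitor of YAP1 for that face. In the forebrain YAP1 is known from radial glia, astrocytes and the ependymal lining, and pyramidal neurons hold little of it.

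The study switched on an active form of YAP1 in mouse neural precursors that express NEX (Neurod6) and looked for brain tumours. RNA was sequenced from the right brain hemisphere at postnatal day 11. The 5 nlsYAP5SA mice had the genotype NexCre +/- YAP5SAnls +/-, the 5 control mice NexCre -/- YAP5SAnls +/-, and the 3 C57BL/6 mice were wild type. All 13 mice are listed with the strain C57BL/6J. The controls are littermates that carry the transgene without Cre, and the C57BL/6 mice came from other litters. The transgene encodes a nuclear YAP1 whose LATS phosphorylation sites are mutated, and it stays silent behind a floxed STOP until Cre removes it. NEX-Cre is expressed from the Neurod6 locus, so the transgene is switched on in cells that have expressed Neurod6 and in their descendants, and the hemisphere also holds many cells without it. Each library held between 20871566 and 25524349 estimated read counts. Totals ran from 21380744 to 25524349 in control, from 20871566 to 23586887 in nlsYAP5SA and from 21541836 to 24392197 in C57BL/6. Levels are given as CPM, a gene's count relative to the TMM-scaled size of its library. A gene is called when its edgeR quasi-likelihood p, adjusted by Benjamini-Hochberg over all genes tested, is 0.05 or less. The p-values set the difference between groups against the spread between these mice. The labels do not give the litter of each mouse, so the fits have no litter term and treat littermates as independent.

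In the GRCm38 build the coactivator genes are Yap1 (ENSMUSG00000053110) at chr9:7931999-8004596 on the minus strand and Wwtr1 (ENSMUSG00000027803) at chr3:57455649-57575910 on the minus strand. The TEAD genes are Tead1 (ENSMUSG00000055320) at chr7:112679318-112906807 on the plus strand, Tead2 (ENSMUSG00000030796) at chr7:45215753-45233644 on the plus strand, Tead3 (ENSMUSG00000002249) at chr17:28331671-28350817 on the minus strand and Tead4 (ENSMUSG00000030353) at chr6:128224288-128300823 on the minus strand. The vestigial-like genes are Vgll2 (ENSMUSG00000049641) at chr10:52022502-52028471 on the plus strand, Vgll3 (ENSMUSG00000091243) at chr16:65815257-65866368 on the plus strand and Vgll4 (ENSMUSG00000030315) at chr6:114860628-114969994 on the minus strand. Tead1 and Tead2 share chromosome 7, and Tead4 and Vgll4 share chromosome 6. Exons of Yap1 overlap those of Gm20416 on the opposite strand over 116 bases, 1.25% of the Yap1 exons, and Gm20416 had 2 counts over all samples. Exons of Tead2 overlap those of Cd37 on the opposite strand over 13 bases, 0.272% of the Tead2 exons. No exon of the other members overlaps another annotated gene.

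Neurod6, a transcription factor of pyramidal neurons and the locus of NexCre, stood at 55.1, 38.9, 48, 56.7 and 47.1 CPM in nlsYAP5SA replicates 1 to 5 and between 91.5 and 110 CPM in the controls. The C57BL/6 mice had 87.9 to 102 CPM. Every nlsYAP5SA hemisphere was below every other one. Neurod6 fell by 0.98 on the log2 scale in nlsYAP5SA against control (SE 0.09, edgeR adjusted p = 2.7e-05). A lost allele and a loss of Neurod6 cells cannot be told apart here. In whole hemispheres, fewer cells of a type and less RNA per cell cannot be told apart.

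Against their control littermates, the nlsYAP5SA hemispheres had higher levels of 5 of the 9 genes and a lower level of 0. Vgll3 rose 6.91-fold, Vgll2 5.22-fold, Tead1 1.72-fold, Tead3 1.68-fold and Yap1 1.17-fold. Each of the 5 was higher in 5 of 5 nlsYAP5SA hemispheres than in any of the 5 controls. Wwtr1, Tead2, Tead4 and Vgll4 were not called. The same test called 7.36% of the 16315 genes tested higher and 3.44% lower. Over those genes, 6.49% had every nlsYAP5SA value above every control value and 3.57% every value below, against 5 and 0 of the 9 members. Of the 9 members 6 had an unadjusted p under 0.05, as had 24.4% of all genes, and DESeq2 called 5 members. All 9 passed the filter on low counts, but Vgll2 passed it only through the nlsYAP5SA hemispheres.

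**Figure D1:**
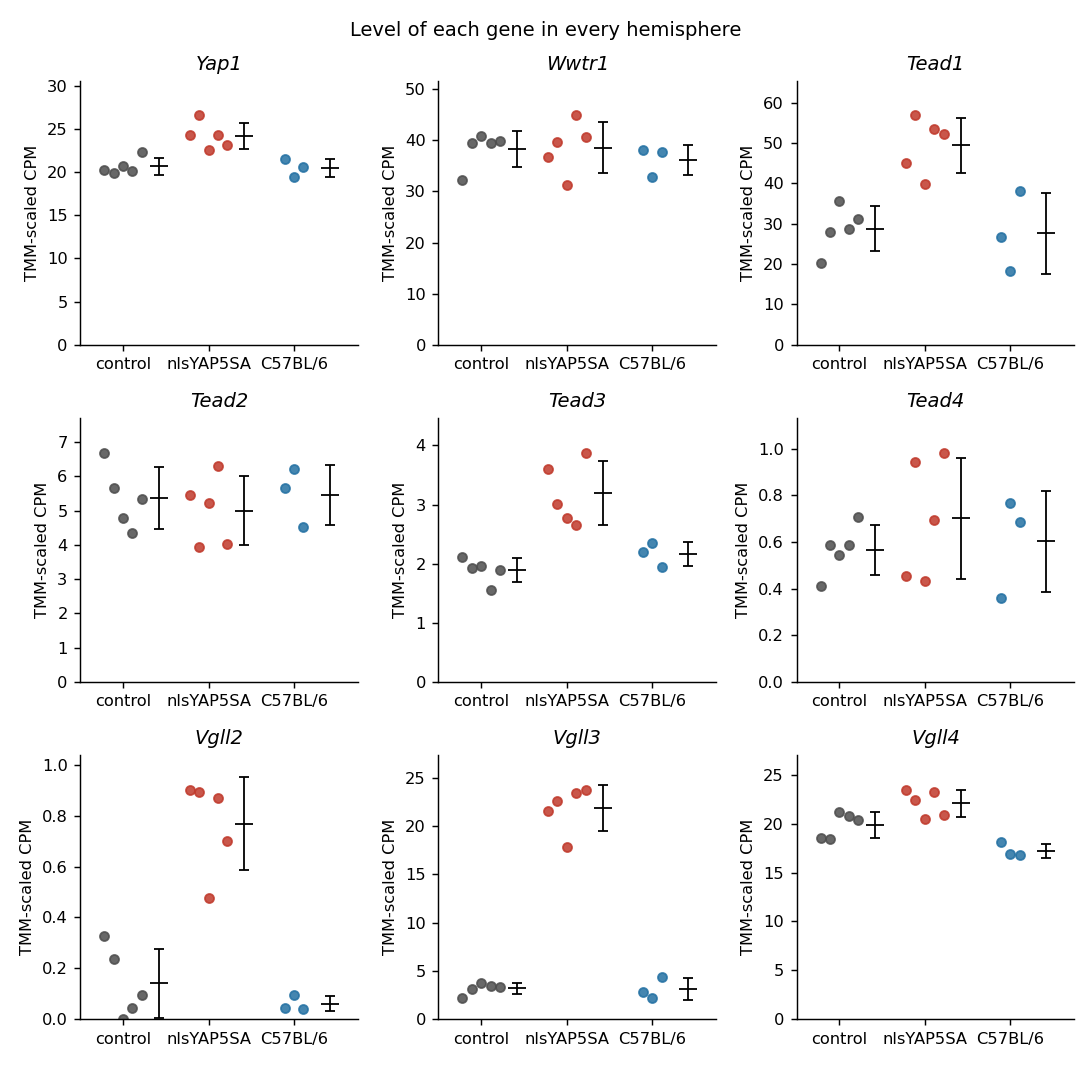
Level of each of the 9 genes (y axis, TMM-scaled CPM, each panel on its own scale from 0) in the 5 control, 5 nlsYAP5SA and 3 C57BL/6 hemispheres. Points are hemispheres and bars show the mean and SD; the nlsYAP5SA points of Vgll3, between 17.9 and 23.8 CPM, lie far above the rest, and those of Wwtr1, Tead2, Tead4 and Vgll4 overlap the controls.

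The levels of Y-linked genes differed in their spread between the groups, which bears on all comparisons with nlsYAP5SA. The labels give no sex. The summed level of Ddx3y, Eif2s3y, Kdm5d and Uty was 90.9 to 129 CPM in 5 of 5 controls. In nlsYAP5SA it was 130 and 135 CPM in replicates 3 and 4 and at most 0.0941 CPM in replicates 1, 2 and 5, and in C57BL/6 119 and 143 CPM in replicates 1 and 3 and 0 in replicate 2. So 3 of 5 nlsYAP5SA hemispheres and 0 of 5 controls were under 1 CPM; those at or above it are called hemispheres with Y-linked reads here. Vgll3 lies far above the controls in both kinds of nlsYAP5SA mice, with 17.9 and 23.5 CPM in replicates 3 and 4. With the Y-linked level as a covariate, Tead1 (0.72, edgeR adjusted p = 0.045) and Vgll3 (2.72, 3.3e-06) kept their call against control, and Yap1 (0.19, 0.37), Tead3 (0.53, 0.15) and Vgll2 (2.19, 0.1) lost it. Among the hemispheres with Y-linked reads alone, a choice made after seeing the data that leaves 2 nlsYAP5SA mice against 5 controls, Vgll3 kept its call (2.70, 1.3e-04). The log2 differences were then 0.18 for Yap1 (adjusted p = 0.54), 0.69 for Tead1 (0.12) and 0.51 for Tead3 (0.31), and Vgll2 had an adjusted p of 0.26, while its log2 difference stayed between 2.19 and 2.52 over all settings. Over all settings tried, DESeq2 included, the adjusted p in this comparison ran from 0.016 to 0.54 for Yap1, from 1.6e-06 to 0.12 for Tead1, from 6.6e-04 to 0.31 for Tead3, from 1.6e-04 to 0.26 for Vgll2 and from 6.3e-90 to 1.3e-04 for Vgll3. Against C57BL/6, the hemispheres with Y-linked reads alone gave 1 call among the members, Vgll3 (2.52, 0.015).

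Yap1 encodes the coactivator that the transgene also supplies in mutant form. It stood at 20.3, 19.9, 20.7, 20.1 and 22.3 CPM in control replicates 1 to 5. In nlsYAP5SA replicates 1 to 5 it stood at 24.3, 26.6, 22.6, 24.3 and 23.2 CPM, and in the C57BL/6 mice at 21.6, 19.4 and 20.6 CPM. The nlsYAP5SA hemispheres were all above the controls, but the lowest of them, replicate 3, exceeded the highest control by little. The group means were 20.7 ± 0.963 CPM in control (SD, n = 5), 24.2 ± 1.52 CPM in nlsYAP5SA (SD, n = 5) and 20.5 ± 1.08 CPM in C57BL/6 (SD, n = 3). Yap1 rose by 0.23 on the log2 scale in nlsYAP5SA against control (SE 0.06, edgeR adjusted p = 0.036). Whether transcripts of the transgene are counted under Yap1 is not given in the sources used here, so transgene and endogenous Yap1 cannot be told apart in this value. The call was weak: with each of the 10 mice left out in turn it held without control replicate 5 (edgeR adjusted p = 0.034) and without nlsYAP5SA replicate 3 (0.032). It was lost without control replicates 1 (0.057), 2 (0.082), 3 (0.063) or 4 (0.085), and without nlsYAP5SA replicates 1 (0.07), 2 (0.084), 4 (0.056) or 5 (0.059).

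Wwtr1 encodes TAZ, the paralog of YAP1 that the Hippo kinases control in the same way. Its level was 32.2, 39.4, 40.9, 39.5 and 39.8 CPM in control replicates 1 to 5. In nlsYAP5SA replicates 1 to 5 it was 36.8, 39.6, 31.3, 44.9 and 40.6 CPM, and in the C57BL/6 mice 38.1, 32.9 and 37.7 CPM. The 3 groups overlap over most of their range, and nlsYAP5SA holds both the lowest and the highest value. Wwtr1 was 0.01 higher on the log2 scale in nlsYAP5SA against control (SE 0.09, edgeR adjusted p = 0.97), and its sign turned under both corrections for GC content and length (-0.07 and -0.03).

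Per length of transcript, TAZ messages outnumbered those of Yap1 in every hemisphere. RPKM, the CPM per kilobase of the union of a gene's exons, averaged 8.02 for Wwtr1 and 2.23 for Yap1 in control, 8.09 and 2.61 in nlsYAP5SA, and 7.58 and 2.22 in C57BL/6. Yap1 made up 24.5, 20.7, 20.7, 20.8 and 22.5% of the length-scaled sum of the 2 coactivators in control replicates 1 to 5. In nlsYAP5SA replicates 1 to 5 its share was 25.4, 25.7, 27.2, 21.8 and 22.8%, and in C57BL/6 it was 22.6, 23.4 and 22%. The shares overlap between the groups, and nlsYAP5SA replicates 4 and 5 lie among the controls. The mean share was 21.9 ± 1.66% in control (SD, n = 5), 24.6 ± 2.22% in nlsYAP5SA (SD, n = 5) and 22.7 ± 0.678% in C57BL/6 (SD, n = 3). The share depends on the length used: with the longest annotated transcript of each gene, a choice made after seeing the data, it was 32.5% in control, 35.9% in nlsYAP5SA and 33.5% in C57BL/6.

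Among the TEAD factors, which bind the DNA for both coactivators, Tead1 and Tead3 rose and Tead2 and Tead4 did not pass the test. Tead1, the TEAD gene with the highest level per length here, stood at 20.3, 28, 35.7, 28.6 and 31.1 CPM in control replicates 1 to 5. It reached 45, 56.8, 39.8, 53.4 and 52.2 CPM in nlsYAP5SA replicates 1 to 5, and in the C57BL/6 mice 26.6, 18.2 and 38.1 CPM. No nlsYAP5SA hemisphere overlaps the other groups, although nlsYAP5SA replicate 3 comes close to C57BL/6 replicate 3. The means were 28.7 ± 5.61 CPM in control (SD, n = 5) and 49.4 ± 6.88 CPM in nlsYAP5SA (SD, n = 5). Tead1 rose by 0.78 on the log2 scale (SE 0.13, edgeR adjusted p = 0.0021).

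Tead1 also varied among mice of the same genotype, from 18.2 to 38.1 CPM within C57BL/6 and from 20.3 to 35.7 CPM within control. It has a long transcript, of 9964 bases at the longest, and long transcripts as a class varied between these libraries. Over 2197 genes whose longest transcript has 6000 bases or more, the mean log2 CPM, centred on each gene's mean over the samples, was -0.26, -0.09, 0.16, 0.01 and 0.06 in control replicates 1 to 5. It was -0.06, 0.16, -0.06, 0.12 and 0.11 in nlsYAP5SA and -0.08, -0.27 and 0.21 in C57BL/6. Control replicate 1 and C57BL/6 replicate 2, where Tead1 is lowest, are low for long transcripts too, and control replicate 3 and C57BL/6 replicate 3, where Tead1 is highest in their groups, are high. With that mean subtracted, the centred Tead1 level was -0.49, -0.20, -0.10, -0.27 and -0.20 in control, 0.44, 0.55, 0.27, 0.51 and 0.48 in nlsYAP5SA, and -0.28, -0.63 and -0.07 in C57BL/6. On this scale, chosen after the values were seen, the groups of nlsYAP5SA and of the others do not overlap. Nor did they before the subtraction, with a lowest centred value of 0.21 in nlsYAP5SA and a highest of 0.15 in the others. The cause of the spread within the groups was not tested. With loess offsets for GC content and length in the fit, the Tead1 difference against control was 0.72 (ordinary, edgeR adjusted p = 4.9e-06) and 0.76 (robust, 5.2e-06), in a range of 1.6e-06 to 0.12 over its settings.

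Tead3, a paralog at a much lower level, stood at 2.12, 1.92, 1.96, 1.55 and 1.89 CPM in control replicates 1 to 5. In nlsYAP5SA replicates 1 to 5 it stood at 3.61, 3.01, 2.77, 2.65 and 3.88 CPM, and in the C57BL/6 mice at 2.2, 2.35 and 1.94 CPM. The nlsYAP5SA values are all above the rest, with replicates 3 and 4 nearest to them. The means were 1.89 ± 0.209 CPM in control (SD, n = 5) and 3.19 ± 0.539 CPM in nlsYAP5SA (SD, n = 5). Tead3 rose by 0.75 on the log2 scale (SE 0.15, edgeR adjusted p = 0.0058), a call that ended with the Y-linked level as a covariate (0.53, adjusted p = 0.15) and among hemispheres with Y-linked reads alone (0.51, 0.31).

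Tead2, a TEAD factor known from the early embryo and neural progenitors, had 4.36 to 6.7 CPM in control, 3.95 to 6.3 CPM in nlsYAP5SA and 4.52 to 6.23 CPM in C57BL/6. These ranges lie almost on top of each other. Its log2 difference between nlsYAP5SA and control was -0.11 (SE 0.15, edgeR adjusted p = 0.73). Tead4, known from the trophectoderm of the early embryo, was near the lower end of detection, with 0.409 to 0.708 CPM in control, 0.433 to 0.983 CPM in nlsYAP5SA and 0.358 to 0.766 CPM in C57BL/6. Its counts summed to 77 over the 5 nlsYAP5SA hemispheres and to 67 over the 5 controls. The depth-corrected ratio of these counts was 1.23 (exact 95% interval 0.878 to 1.74, counting error alone), and the fitted log2 difference was 0.30 (SE 0.28, edgeR adjusted p = 0.56). That interval includes 1, and Tead4 also varied between mice of a group.

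**Figure D2:**
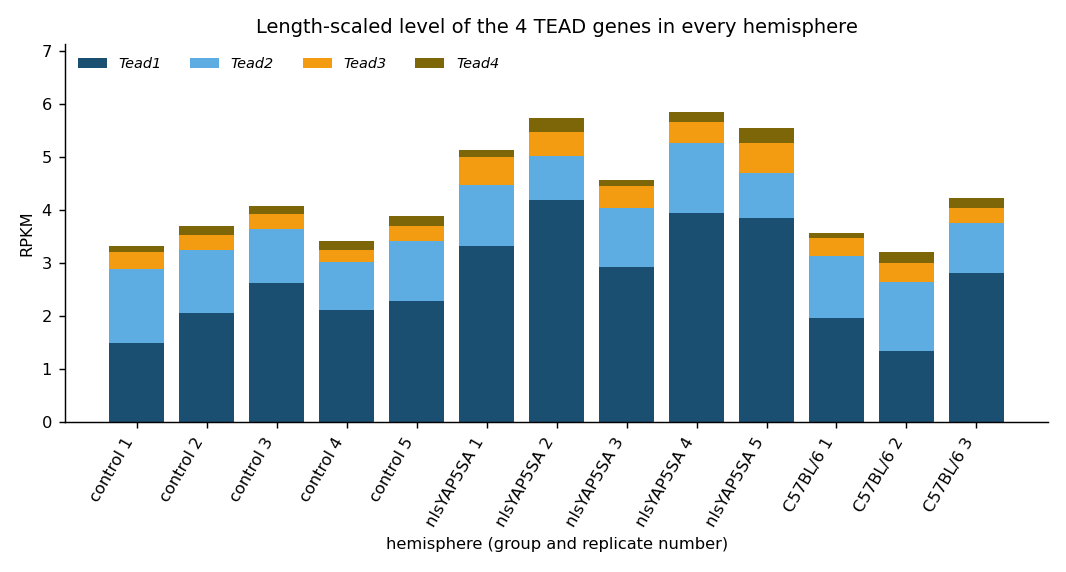
Length-scaled level (y axis, RPKM) of Tead1, Tead2, Tead3 and Tead4 stacked for each of the 13 hemispheres. The nlsYAP5SA columns are the tallest, between 4.56 and 5.84 RPKM, and Tead1 fills most of the added height.

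Added over the 4 genes, the TEAD messages per length came to 3.68 ± 0.314 RPKM in control (SD, n = 5), 5.36 ± 0.521 RPKM in nlsYAP5SA (SD, n = 5) and 3.67 ± 0.521 RPKM in C57BL/6 (SD, n = 3). The sum ran from 4.56 to 5.84 RPKM in nlsYAP5SA and from 3.2 to 4.23 RPKM in the others, with no overlap and no test. Tead1 made up 44.9, 55.9, 64.6, 61.7 and 59% of it in control replicates 1 to 5. Its share was 64.7, 73.2, 64.3, 67.4 and 69.5% in nlsYAP5SA and 55, 41.9 and 66.4% in C57BL/6. These shares overlap between the groups. On average the pool went from 57.2 ± 7.59% Tead1 in control (SD, n = 5) to 67.8 ± 3.64% in nlsYAP5SA (SD, n = 5), while the mean share of Tead2 was 30.8% and 19.7%, that of Tead3 7.68% and 8.92%, and that of Tead4 4.28% and 3.58%. In C57BL/6 the mean shares were 54.4% Tead1, 32% Tead2, 8.96% Tead3 and 4.65% Tead4.

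Of the vestigial-like genes Vgll2 and Vgll3 rose, and Vgll4 was not called. Vgll3, a cofactor known from muscle, mesenchymal cells and inflamed skin, stood at 2.21, 3.13, 3.75, 3.4 and 3.35 CPM in control replicates 1 to 5, which is 54, 80, 90, 81 and 71 counts. The nlsYAP5SA replicates 1 to 5 stood at 21.6, 22.6, 17.9, 23.5 and 23.8 CPM, from 479, 481, 414, 540 and 509 counts. The C57BL/6 mice had 2.78, 2.2 and 4.36 CPM. The lowest nlsYAP5SA hemisphere, replicate 3, is several times above the highest of the other 8. The means were 3.17 ± 0.581 CPM in control (SD, n = 5), 21.9 ± 2.37 CPM in nlsYAP5SA (SD, n = 5) and 3.11 ± 1.12 CPM in C57BL/6 (SD, n = 3). Vgll3 rose by 2.79 on the log2 scale (SE 0.13, edgeR adjusted p = 1.1e-07).

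Vgll2, a cofactor known from developing skeletal muscle, was almost silent outside nlsYAP5SA. It had 8, 6, 0, 1 and 2 counts in control replicates 1 to 5, 20, 19, 11, 20 and 15 counts in nlsYAP5SA replicates 1 to 5, and 1, 2 and 1 counts in the C57BL/6 mice. In CPM these are 0.327, 0.235, 0, 0.042 and 0.0944 in control, 0.903, 0.894, 0.476, 0.869 and 0.702 in nlsYAP5SA and 0.0448, 0.0958 and 0.0403 in C57BL/6. All nlsYAP5SA hemispheres lie above all others, and control replicates 1 and 2 stand above the other controls. The means were 0.14 ± 0.137 CPM in control (SD, n = 5) and 0.769 ± 0.183 CPM in nlsYAP5SA (SD, n = 5). With 85 counts in nlsYAP5SA and 17 in control, the depth-corrected ratio was 5.37 (exact 95% interval 3.16 to 9.64, counting error alone). Vgll2 rose by 2.39 on the log2 scale (SE 0.51, edgeR adjusted p = 0.0082). The filter asked for 0.434 CPM in 5 samples, which 5 of 5 nlsYAP5SA hemispheres and 0 of 5 controls reached. The summed level of the skeletal muscle markers Acta1, Ckm, Mylpf, Myh4, Tnnt3 and Myod1 was 5.4 to 6.46 CPM in control and 4.21 to 6.78 CPM in nlsYAP5SA.

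Vgll4, the competitor of YAP1 on TEAD factors, stood at 18.5, 18.4, 21.2, 20.8 and 20.4 CPM in control replicates 1 to 5. In nlsYAP5SA replicates 1 to 5 it stood at 23.5, 22.4, 20.5, 23.3 and 20.9 CPM, and in the C57BL/6 mice at 18.1, 16.9 and 16.8 CPM. Replicates 3 and 5 of nlsYAP5SA lie within the control range, and the C57BL/6 mice lie below both other groups. The log2 difference between nlsYAP5SA and control was 0.16 (SE 0.07, edgeR adjusted p = 0.17, unadjusted p = 0.035). The means were 19.9 ± 1.33 CPM in control (SD, n = 5), 22.1 ± 1.36 CPM in nlsYAP5SA (SD, n = 5) and 17.2 ± 0.703 CPM in C57BL/6 (SD, n = 3). Vgll1 had 0 counts in 13 of 13 samples. About 3 counts, the upper 95% limit for a count of 0 (counting error alone), would be 0.117 to 0.144 CPM.

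Ranked by RPKM, the 9 genes in control ran from Wwtr1 (8.02) through Vgll4 (3.68), Yap1 (2.23), Tead1 (2.12), Tead2 (1.12), Vgll3 (0.446), Tead3 (0.281) and Tead4 (0.157) to Vgll2 (0.0846). The ranges of Yap1 and Tead1 overlap, as do those of Vgll3 and Tead3 and those of Tead4 and Vgll2. The C57BL/6 mice gave the same order, with RPKM of 7.58, 3.2, 2.22, 2.04, 1.14, 0.438, 0.322, 0.168 and 0.0366. In nlsYAP5SA the order was Wwtr1 (8.09), Vgll4 (4.1), Tead1 (3.64), Vgll3 (3.08), Yap1 (2.61), Tead2 (1.04), Tead3 (0.475), Vgll2 (0.466) and Tead4 (0.195). There Vgll3 stood near Tead1 and Yap1, and each neighbour from Vgll4 to Yap1 overlaps the next in range, while Wwtr1 stood above all. The order depends on the length. With the longest transcript of each gene, Vgll4 came before Wwtr1, at 9.03 against 8.16 in control, 10.1 against 8.23 in nlsYAP5SA and 7.85 against 7.71 in C57BL/6. Vgll3 then came after Yap1 in nlsYAP5SA, at 3.12 against 4.58, and after Tead3 in control (0.452 against 0.548) and in C57BL/6 (0.444 against 0.627).

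**Figure D3:**
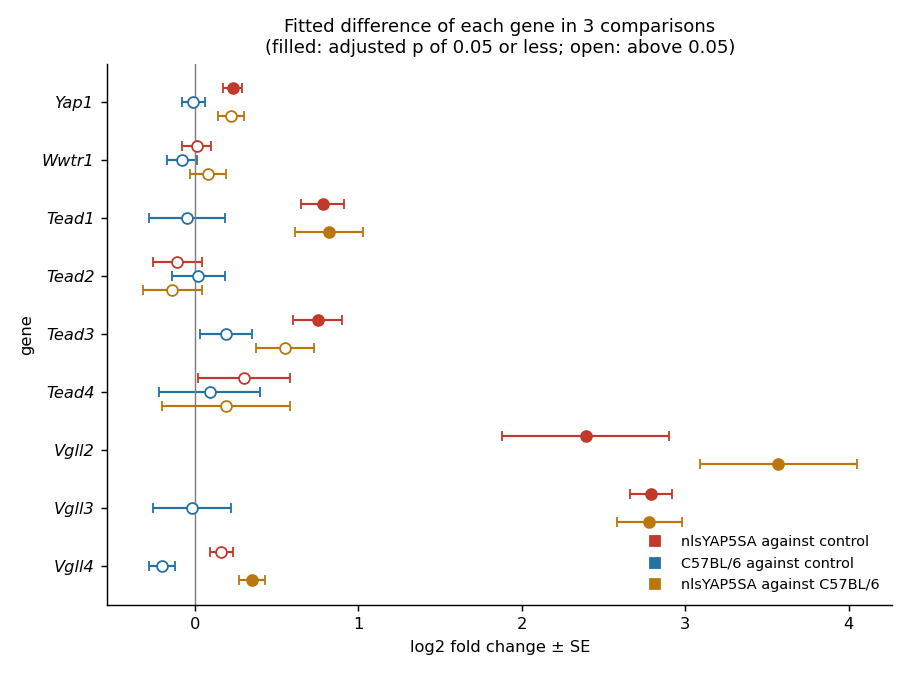
Log2 fold change (x axis) of each gene in the 3 comparisons, with bars of 1 SE; filled points passed the threshold. Vgll2 and Vgll3 lie far to the right in both comparisons with nlsYAP5SA, at 2.39 and 2.79 against control, and the C57BL/6 against control points lie near 0, without Vgll2, which was not tested there.

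The C57BL/6 mice, which carry no transgene, were compared with the controls to see how far a second unrecombined group stood from them. Of the 8 genes tested, edgeR called 0 higher and 0 lower, 1 had an unadjusted p under 0.05 (Vgll4, beside 3.78% of all genes) and DESeq2 called 0. Over all 16546 genes, 0.0484% were called higher and 0.121% lower. The fitted log2 differences were -0.01 for Yap1 (SE 0.07), -0.08 for Wwtr1 (SE 0.09), -0.05 for Tead1 (SE 0.23), 0.02 for Tead2 (SE 0.16), 0.19 for Tead3 (SE 0.16), 0.09 for Tead4 (SE 0.31), -0.02 for Vgll3 (SE 0.24) and -0.20 for Vgll4 (SE 0.08). The sign of Yap1, Tead1, Tead2, Tead4 and Vgll3 turned under other settings. Vgll4 was the only member whose groups did not overlap, at 16.8 to 18.1 CPM in C57BL/6 and 18.4 to 21.2 CPM in control. In the edgeR quasi-likelihood fit across all genes its unadjusted p was 0.029 and its adjusted p 1. Among all genes 1.39% had every C57BL/6 value below every control value and 1.95% every value above. Vgll2 did not pass the filter, with 4 counts in C57BL/6 and 17 in control, a depth-corrected ratio of 0.412 (exact 95% interval 0.101 to 1.26).

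Against the C57BL/6 mice, which the nlsYAP5SA group does not share litters with, 4 of the 9 genes were called higher in nlsYAP5SA and 0 lower. Vgll2 rose by 3.57 on the log2 scale (SE 0.48, edgeR adjusted p = 0.0021), Vgll3 by 2.78 (SE 0.20, adjusted p = 6.9e-05), Tead1 by 0.82 (SE 0.21, adjusted p = 0.047) and Vgll4 by 0.35 (SE 0.08, adjusted p = 0.028). This comparison uses the same nlsYAP5SA samples as the one with the controls, so the 2 are not independent. The shares of all 16641 genes called were 4.16% higher and 2.22% lower. The groups did not overlap for 6 members, all higher in nlsYAP5SA (Yap1, Tead1, Tead3, Vgll2, Vgll3 and Vgll4), beside 8.71% of all genes higher and 6.48% lower. Unadjusted p was under 0.05 for 6 members and for 21% of all genes, and DESeq2 called 4 members. Yap1, at 0.22 (SE 0.08, adjusted p = 0.13), and Tead3, at 0.55 (SE 0.18, adjusted p = 0.11), did not pass. The log2 differences of Wwtr1, Tead2 and Tead4 were 0.08 (SE 0.11), -0.14 (SE 0.18) and 0.19 (SE 0.39). Vgll2 had 85 counts in nlsYAP5SA and 4 in C57BL/6, a depth-corrected ratio of 13 (exact 95% interval 4.91 to 48.9). It passed the filter only through nlsYAP5SA, where 5 of 5 samples and 0 of 3 C57BL/6 samples reached 0.448 CPM.

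The calls of Tead1 and Vgll4 in that comparison changed with single mice. The edgeR adjusted p of Tead1 was 0.077, 0.099, 0.079 and 0.098 without nlsYAP5SA replicates 1, 2, 4 and 5, and 0.15 and 0.092 without C57BL/6 replicates 1 and 2. That of Vgll4 was 0.072, 0.059 and 0.052 without nlsYAP5SA replicates 1, 2 and 5, and 0.077 and 0.07 without C57BL/6 replicates 1 and 2. Vgll2 and Vgll3 kept their call without any single mouse. Tead1 also lost its call with Ttr (0.068) or the Y-linked level (0.06) as a covariate, in a range of 5.2e-04 to 0.65 over its settings. Tead3 passed with all 13 samples in 1 fit (0.047) and with both loess offsets for GC content and length (0.046 and 0.044), in a range of 0.044 to 0.96. The number of all genes called, 1061 in full, was 636, 645 and 509 without nlsYAP5SA replicates 1, 2 and 5, and 401, 581 and 1757 without C57BL/6 replicates 1, 2 and 3.

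The rest of the Hippo pathway and its target genes were taken from 4 lists of textbook members. The lists were written with earlier results of these data known. For reference to the calls in each list, edgeR called 7.36% of all genes higher in nlsYAP5SA against control and 3.44% lower. Of 14 genes of the kinase module, 2 rose in nlsYAP5SA against control and 0 fell, and DESeq2 called 2. An unadjusted p under 0.05 was found for 4 of the 14, near the 24.4% over all genes. The 2 called were Lats2, which encodes a kinase that phosphorylates YAP1 and TAZ (log2 1.12, SE 0.10, edgeR adjusted p = 1.5e-05), and Wwc2, of the KIBRA family that activates LATS kinases (0.61, SE 0.06, adjusted p = 4.5e-05). The list's median was 0.12, beside -0.01 over all genes tested. Of 15 genes for retention and turnover of YAP1 and TAZ, Amotl2, an angiomotin that holds YAP1 outside the nucleus (1.56, SE 0.07, adjusted p = 1.1e-07), and Ptpn14, a phosphatase that binds YAP1 (0.94, SE 0.18, adjusted p = 0.0048), rose and 0 fell. The median of that list was 0.00, 4 of the 15 had an unadjusted p under 0.05, near the share over all genes, and DESeq2 called Ywhag, a 14-3-3 protein, lower besides. Of 12 other nuclear partners 10 were tested, and Runx1, a DNA-binding factor that YAP1 can also bind, rose (1.65, SE 0.23, adjusted p = 4.5e-04). The median of those 10 was 0.09, 2 of them had an unadjusted p under 0.05, again near that share, and Runx3 and Tbx5 did not pass the filter.

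Of 22 known YAP1, TAZ and TEAD target genes, 15 rose and 1 fell, with a median of 0.75 beside -0.01 over all genes. The same test called 7.36% of all genes higher and 3.44% lower. Among the 22, 18 had an unadjusted p under 0.05, beside 24.4% of all genes, and DESeq2 called 15 higher and 1 lower. Ankrd1, a muscle ankyrin repeat protein widely used as a YAP1 readout, had the largest fitted difference (log2 5.14, SE 0.40, edgeR adjusted p = 6.1e-06). It had 2, 3, 5, 6 and 0 counts in control and 94, 107, 63, 139 and 139 in nlsYAP5SA, so it too passed the filter only through nlsYAP5SA, and its fold rests on controls near 0. Ccn1, a secreted matricellular protein, rose by 2.48 (SE 0.18, adjusted p = 4.2e-06), Ajuba, a LIM protein that binds LATS kinases, by 1.66 (SE 0.10, adjusted p = 1.1e-06) and Igfbp3, an IGF-binding protein, by 1.56 (SE 0.20, adjusted p = 3.0e-04). Foxf2, a forkhead factor of brain pericytes, was the target that fell, by 0.61 (SE 0.13, adjusted p = 0.0071). Amotl2, Ptpn14 and Lats2 stand on this list too. The study had already reported Amotl2, Ccn1, Ccn2, Ankrd1 and Axl, all on this list, as higher in these same nlsYAP5SA mice. Against C57BL/6 12 of the 22 rose and 1 fell, Gadd45a, with a median of 0.63, beside 4.16% of all genes higher and 2.22% lower. There 17 of the 22 had an unadjusted p under 0.05, beside 21% of all genes, and DESeq2 called 14 higher and 1 lower. Between C57BL/6 and control edgeR called 0 genes of the 4 lists, 3 targets had an unadjusted p under 0.05, and DESeq2 called 1, Ccn2.

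Markers of cell types moved in nlsYAP5SA along with the members, and their part in the members' differences was not tested. For reference, 7.36% of all genes were called higher against control and 3.44% lower, and 24.4% had an unadjusted p under 0.05. Of 5 microglial markers 4 rose (Cx3cr1 0.68, Tmem119 0.36, Csf1r 0.76 and Aif1 0.84 on the log2 scale), and Csf1r was the most abundant. Their summed level was 190, 190, 227, 246 and 239 CPM in control replicates 1 to 5, 303, 338, 265, 331 and 354 CPM in nlsYAP5SA, and 218, 227 and 207 CPM in C57BL/6. Every nlsYAP5SA hemisphere was above all others in this sum, as for the 5 members called. Against control alone, 6.49% of all genes tested had every nlsYAP5SA value above every control value. The microglial marker not called, P2ry12, differed by 0.07 (edgeR adjusted p = 0.75). Of 7 astrocyte markers 4 rose, Gfap by 2.06 (SE 0.07, edgeR adjusted p = 1.3e-08), Aldoc by 0.51, Gja1 by 0.36 and Slc1a3 by 0.31, and the most abundant, Slc1a2, differed by 0.21 (adjusted p = 0.57). The astrocyte sum was 3249, 3765, 5707, 4950 and 5076 CPM in control, 5583, 7128, 5625, 5112 and 6529 CPM in nlsYAP5SA, and 4339, 4444 and 5794 CPM in C57BL/6, so the groups overlap. Control replicate 1, the lowest of the controls for Wwtr1 and Tead1, is the lowest for this sum too, and Slc1a2 alone gave 1710 of its 3249 CPM. Slc1a2, Aqp4, Slc1a3 and Gja1 were lowest in that control, but Aldh1l1, Aldoc and Gfap were lowest in other controls. In C57BL/6, replicate 2 was lowest for Wwtr1 and Tead1 but not for this sum, at 4444 CPM against 4339 in replicate 1. A link was not tested.

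Of 8 neuronal markers 1 fell, Neurod6, and the most abundant, Syt1, differed by -0.02. The neuronal sum ran from 4227 to 4572 CPM in control, from 3863 to 4304 in nlsYAP5SA and from 4391 to 4613 in C57BL/6. Among markers of vessels, 2 of 6 endothelial genes fell (Cldn5 by 0.44 and Cdh5 by 0.45) and so did 2 of 6 mural genes (Rgs5 by 0.58 and Kcnj8 by 0.50). An unadjusted p under 0.05 was found for 4 of the endothelial and 2 of the mural genes. DESeq2 called the endothelial gene Pecam1 lower besides, and the same 2 mural genes. The endothelial sum, led by Kdr (log2 -0.06), was 196, 197, 230, 233 and 230 CPM in control, 168, 203, 154, 201 and 200 CPM in nlsYAP5SA, and 232, 212 and 212 CPM in C57BL/6. The mural sum, led by Rgs5, was 237, 286, 306, 298 and 298 CPM in control, 180, 237, 155, 245 and 228 CPM in nlsYAP5SA, and 310, 278 and 300 CPM in C57BL/6. Both sums overlap between nlsYAP5SA and control.

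Of 6 ciliated ependymal markers 1 rose, Foxj1, the master factor of motile cilia and the most abundant of them, by 0.78 (SE 0.16, edgeR adjusted p = 0.0077). The ependymal sum was 24.3, 19.1, 13.4, 10.9 and 12.7 CPM in control, 26.6, 25.9, 25, 23.2 and 25.3 CPM in nlsYAP5SA, and 16.3, 16.9 and 16.7 CPM in C57BL/6. Control replicate 1 reached the nlsYAP5SA range. Of 6 meningeal markers Col1a2, the most abundant, rose by 0.62 and Aldh1a2 by 0.84, and Lum fell by 0.83. The meningeal sum was 120, 131, 163, 188 and 173 CPM in control, 229, 211, 156, 224 and 244 CPM in nlsYAP5SA, and 194, 179 and 164 CPM in C57BL/6. Of 6 progenitor markers Pax6 rose by 0.44, and the most abundant, Fabp7, differed by -0.39. Their sum was 398, 374, 286, 304 and 294 CPM in control, 255, 211, 243, 409 and 268 CPM in nlsYAP5SA, and 352, 286 and 225 CPM in C57BL/6.

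Of 6 choroid plexus markers 1 rose, Folr1, 4.6-fold (log2 SE 0.50, edgeR adjusted p = 0.013), with 2.87 to 5.37 CPM in nlsYAP5SA and at most 2.46 CPM in the others. An unadjusted p under 0.05 was found for 2 of the 6, and DESeq2 called Clic6 higher besides (edgeR log2 1.02, adjusted p = 0.078). Ttr, the most abundant on average, ran from 0.782 to 275 CPM over the samples. The sum of the 6 was 232, 9.15, 9.41, 10.9 and 143 CPM in control, 282, 306, 157, 10.7 and 70.5 CPM in nlsYAP5SA, and 8.6, 170 and 263 CPM in C57BL/6. The sum varied widely within each group, and the groups overlap. Against control, oligodendrocyte markers gave 0 calls among 6 with edgeR, 5 at an unadjusted p under 0.05 and 2 with DESeq2 (Mbp and Cnp). Their sum was 2077 to 3480 CPM in control, 1331 to 2868 CPM in nlsYAP5SA and 2979 to 4632 CPM in C57BL/6, and the most abundant, Mbp, differed by -0.49. Against C57BL/6, where these sums do not overlap, Mog and Mag fell by edgeR, 6 of 6 had an unadjusted p under 0.05 and DESeq2 called 5 lower. In that comparison edgeR called 2.22% of all genes lower, and 21% had an unadjusted p under 0.05. Every nlsYAP5SA value was below every C57BL/6 value for 6.48% of all genes. The median of the 6 markers was 0.38 in C57BL/6 against control, with 0 calls by edgeR. Red blood cell markers gave 0 calls among 5 with edgeR, 0 at an unadjusted p under 0.05 and 0 with DESeq2, with sums of 271 to 594, 206 to 388 and 292 to 384 CPM in the same order of groups, led by Hbb-bs. Of the 6 skeletal muscle markers 2 were tested, with 0 calls by edgeR, 1 at an unadjusted p under 0.05 and 0 by DESeq2, and the most abundant, Acta1, differed by -0.33 (edgeR adjusted p = 0.19). No marker of these 12 lists was at 0 in all samples.

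For each member called against control, the genes with the most similar course over the 13 samples were found among 16307 others, by the root mean square difference between centred values of log2(CPM + 0.5). Closest to Vgll3 were Lox, a lysyl oxidase that crosslinks collagen (0.218), A2m, a protease inhibitor (0.223), and Lrp2, an endocytic receptor (0.249), where the median over all genes was 1.31. Closest to Tead1 were Arid5b (0.097), Sema3d (0.125) and Plekhh2 (0.128), beside a median of 0.52. Closest to Tead3 were Pmp22, a myelin protein (0.116), Grn, which encodes progranulin (0.118), and Metrnl (0.12), beside 0.358. Vgll2 lay closest to Ifi30 (0.147), Adamtsl4 (0.163) and Anxa2 (0.174), beside 0.588, and Yap1 to Crot (0.0544), Vps4b (0.0545) and Plcb3 (0.0554), beside 0.219. The added 0.5 CPM shrinks the differences of Vgll2, which stayed under 1 CPM, and its 3 nearest genes differed between nlsYAP5SA and control by 0.78, 1.33 and 0.80 on the log2 scale beside 2.39 for Vgll2. The distance counts the step between the groups, so genes with a like difference in nlsYAP5SA come out close. Lox, A2m and Lrp2 differed between nlsYAP5SA and control by 2.89, 2.65 and 3.40, beside 2.79 for Vgll3. The centred levels themselves had a root mean square of 1.31 for Vgll3, 0.562 for Vgll2, 0.492 for Tead1, 0.314 for Tead3 and only 0.128 for Yap1. A likeness beyond the difference between the groups was not tested.

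TEAD factors bind DNA at the motif GGAATG, whose reverse complement is CATTCC. Both were searched for in the 250 bases before each RefSeq transcription start (GRCm38.p6). RefSeq starts were matched for 7 of the 9 genes, all but Tead1 and Tead4, with 10 promoters in all. The letters occur on either strand in at least 1 promoter of 5 of these 7 genes (Yap1, Wwtr1, Tead3, Vgll3 and Vgll4) and not in those of Tead2 and Vgll2. They occur in 14.4% of all 27025 genes and in 12.6% of all 32851 promoters of the same length. Of the 10 promoters of the members 7 hold a match, and the overlapping windows of Wwtr1 share theirs. The promoters below belong to the members that rose and have a RefSeq start, and for Tead3, with several starts, the outermost is shown. Each is written 5′ to 3′ on the strand of its gene, from RefSeq, with the motif in capitals. Yap1 covers chr9:8004597-8004846 (minus strand), Tead3 chr17:28350806-28351055 (minus strand), Vgll3 chr16:65814939-65815188 (plus strand) and Vgll2 chr10:52022252-52022501 (plus strand). The motif begins 141 bases before the start in Yap1, 182 in the Tead3 promoter shown and 63 in Vgll3, and the window of Vgll2 has no match. Another Tead3 promoter, not shown, has matches at 123 and 114 bases, and the last has none.
Yap1: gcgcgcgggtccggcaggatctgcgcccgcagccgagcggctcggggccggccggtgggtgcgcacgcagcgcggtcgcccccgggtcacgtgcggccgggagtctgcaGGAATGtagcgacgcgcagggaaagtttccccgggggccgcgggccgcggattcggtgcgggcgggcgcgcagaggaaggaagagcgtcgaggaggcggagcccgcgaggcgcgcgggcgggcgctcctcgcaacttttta
Tead3: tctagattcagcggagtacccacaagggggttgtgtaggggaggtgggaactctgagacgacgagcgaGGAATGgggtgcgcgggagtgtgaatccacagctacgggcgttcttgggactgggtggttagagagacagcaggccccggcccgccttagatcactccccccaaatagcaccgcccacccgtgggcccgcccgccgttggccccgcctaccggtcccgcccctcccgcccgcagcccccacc
Vgll3: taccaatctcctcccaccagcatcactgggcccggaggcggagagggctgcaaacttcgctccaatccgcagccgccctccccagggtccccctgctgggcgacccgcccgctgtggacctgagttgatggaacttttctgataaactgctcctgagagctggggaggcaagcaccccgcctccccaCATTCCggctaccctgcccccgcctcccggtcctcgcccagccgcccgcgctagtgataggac
Vgll2: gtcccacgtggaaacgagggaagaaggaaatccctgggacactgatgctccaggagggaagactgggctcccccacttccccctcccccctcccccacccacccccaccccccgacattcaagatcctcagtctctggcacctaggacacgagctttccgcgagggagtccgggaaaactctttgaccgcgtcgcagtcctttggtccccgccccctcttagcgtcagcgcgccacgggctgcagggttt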

How the data were processed

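RNA of 13 right brain hemispheres was measured by poly(A) RNA sequencing. The deposited values are RSEM expected counts per gene, which the authors made with cutadapt 1.5, STAR, SAMtools 1.8 and RSEM 1.3.0 on GRCm38; the strand setting is not given in the sources used here. Expected counts were rounded and fitted with edgeR 4.0.16 (limma 3.58.1, R 4.3.3) on the 2 groups compared: filterByExpr with a minimum count of 10 and a minimum total of 15, TMM, glmQLFit and glmQLFTest, two-sided, Benjamini-Hochberg over all genes tested, threshold 0.05. The test was run on simulated data first. Levels come from 1 TMM scaling of all 13 samples, with lengths and positions from GENCODE M21. Totals of 20871566 to 25524349 counts put 3 counts at 0.117 to 0.144 CPM. Tables and figures used Python 3.11.15, numpy 2.4.6, pandas 2.3.3, scipy 1.17.1 and matplotlib 3.10.9.

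Genes named are the 9 members, Vgll1, Neurod6, up to 4 called genes with the largest log2 fold change in each of 4 pathway lists and any called against its list, the 3 genes nearest in pattern to each called member, and from each of 12 marker lists the most abundant gene and those called. Ywhag, Gadd45a, Ccn2, Cnp, Pecam1, Clic6, Gm20416, Cd37 and the 4 Y-linked genes were named after their values were seen. Members and lists were chosen with earlier results of these data known. Alternatives were DESeq2 1.42.0 size factors and its Wald test, library size alone, no filter, at least 10 counts in every sample, all 13 samples in 1 fit, a replicate block, Ttr or Y-linked levels as a covariate, loess offsets for GC content and length, other lengths for the pools, and each mouse left out. Replicate libraries differed by more than sampling noise. A microglial marker is not reported here and was left out of its list. Litters of the mice are not given in the labels.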

Additional observations from a re-analysis of the deposited data

Results flagged for a closer look

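In each group of 5 hemispheres, the lowest and the highest value of the 9 members, Neurod6 and the pathway genes named were compared with the nearest of the others; a gap above 0.71 of the whole range was noted. Of 40 groups tested over 20 genes, 2 were noted, and chance notes about 1 in 20. Wwtr1 in control replicate 1 stood at 32.2 CPM, where the next control had 39.4 and the highest 40.9 CPM, a gap of 0.83 of the range. Igfbp3, a target gene, in nlsYAP5SA replicate 4 stood at 27.9 CPM, where the next had 62 and the highest 72.6 CPM, a gap of 0.764 of the range.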

How the results depend on the processing

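Against control, Vgll3 kept its call in 12 of 12 settings and in 10 of 10 fits with a mouse left out. Tead1 kept it in 11 and 10, Tead3 in 10 and 10, Vgll2 in 9 of 11 and 10, and Yap1 in 4 and 2 (adjusted p 0.016 to 0.54 over its settings, DESeq2 included). Tead1 lost it among hemispheres with Y-linked reads alone, and Tead3 and Vgll2 there and with the Y-linked covariate. With at least 10 counts in every sample, Vgll2 has no value, nor Tead4 in the C57BL/6 comparisons. At this depth Vgll2 had at most 20 counts in a sample and Tead4 at most 21.

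In nlsYAP5SA against control, 1761 genes were called in the fit given. The number was 542 with the Y-linked covariate (2 members), 334 among hemispheres with Y-linked reads alone, chosen after seeing the data (1 member), and 3446 with the ordinary loess offset, which called 36.9% of them higher in place of 68.1%. Between C57BL/6 and control, 28 genes became 16 with at least 10 counts in every sample, 59 with the DESeq2 Wald test and 44 with all samples in 1 fit. In nlsYAP5SA against C57BL/6, 1061 genes became 1596 with the DESeq2 Wald test, 2291 with the ordinary loess offset (38.8% higher in place of 65.2%), 1724 with the robust one and 47 among hemispheres with Y-linked reads alone (1 member), and ran from 401 to 1757 with a mouse left out (2 to 4 members). The causes were not tested, beyond the fewer samples in some of these fits.

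With the replicate number as a paired term (replicate block), which pairs samples that share only a number in their label, 1239 genes and 4 members were called in nlsYAP5SA against control, 15 genes between C57BL/6 and control, and 47 genes and 0 members in nlsYAP5SA against C57BL/6 (edgeR; 4 members were called without the block by edgeR and by DESeq2, and 6 had an unadjusted p under 0.05). There Vgll3 had an adjusted p of 0.054, in a range of 3.4e-42 to 0.054 over its settings. The log2 differences that turned sign in the replicate block were 0.01 (Yap1), -0.07 (Tead2) and 0.02 (Vgll3) for C57BL/6 against control, and -0.03 (Wwtr1) and -0.03 (Tead4) for nlsYAP5SA against C57BL/6.

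Every other value that turned sign belongs to a gene not called, and the cause was not tested. In nlsYAP5SA against control they were -0.07, -0.03 and -0.01 for Wwtr1 (ordinary loess, robust loess, Y-linked reads alone; -0.05 to 0.08 with a mouse left out), 0.08 and 0.10 for Tead2 (Y-linked covariate, Y-linked reads alone) and -0.01 for Tead4 (Y-linked reads alone). In C57BL/6 against control, with the Y-linked covariate and with Y-linked reads alone, they were 0.03 and 0.03 for Yap1, 0.17 and 0.17 for Tead1, -0.09 and -0.08 for Tead2, -0.07 and -0.10 for Tead4, and 0.17 and 0.18 for Vgll3. The Ttr covariate gave -0.01 for Tead2, -0.01 for Tead4 and 0.02 for Vgll3, library size alone -0.01 for Tead2, and ordinary loess 0.01 for Yap1. With a mouse left out the ranges were -0.05 to 0.03 for Yap1, -0.37 to 0.17 for Tead1, -0.08 to 0.13 for Tead2, -0.10 to 0.35 for Tead4 and -0.36 to 0.18 for Vgll3. In nlsYAP5SA against C57BL/6 they were -0.01 for Wwtr1 (ordinary loess), 0.18 for Tead2 (Y-linked reads alone) and -0.06 to 0.41 for Tead4 with a mouse left out.

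In control, nlsYAP5SA and C57BL/6, the share of Yap1 among the coactivators was 35.1, 38.7 and 36.2% without scaling by length and 32.5, 35.9 and 33.5% with the longest transcript, and that of Tead1 among the TEAD factors was 78.1, 84.6 and 75.6% without scaling. Member levels scaled by library size alone moved in 0 of 27 group means by more than 1 SD.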

Other observations

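The highest levels of Tead2 in control and in C57BL/6 were 6.7 CPM in control replicate 1 and 6.23 CPM in C57BL/6 replicate 2, where Tead1 stood at 20.3 and 18.2 CPM, the lowest in their groups. Over 3021 genes whose longest transcript is under 2000 bases, the mean centred log2 level was 0.16 in both of these hemispheres and at most 0.06 in the others. The longest Tead2 transcript has 3396 bases, so Tead2 is not in that class, and a link with its level was not tested. Runx3, a nuclear partner of YAP1 that did not pass the filter against control, had 2, 0, 2, 1 and 0 counts in control replicates 1 to 5, 5, 10, 2, 18 and 16 counts in nlsYAP5SA, and 0, 1 and 0 counts in C57BL/6. Against C57BL/6 it passed the filter only through nlsYAP5SA and was called higher (edgeR adjusted p = 0.042), over a single count. Its values in nlsYAP5SA spread widely, and replicate 3 is level with control replicates 1 and 3.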
